A study of Mus musculus with 8 samples.

Results

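The genes described here move calcium across membranes. They are the endoplasmic reticulum pump Atp2a2, the plasma membrane pumps Atp2b1, Atp2b2, Atp2b3 and Atp2b4, the release channels Ryr1, Ryr2, Ryr3 and Itpr1, and the sodium-calcium exchanger Slc8a1. They were chosen by name from the deposited FPKM values (a level in fragments that is scaled for the length of the transcript and for sequencing depth), where all 10 were found among 13996 genes. Male C57BL/6 mice received a conventional diet (normal mice) or a diet with 60% fat by weight (high fat diet fed mice, HFD) from 8 weeks of age, and brain cortexes were taken after 8 weeks of feeding, at 16 weeks. There were 4 mice per diet and 1 library of rRNA-depleted RNA per mouse. The labels name the cortex without saying which cortical regions were dissected. The comparison asks whether the RNA of these calcium transport genes differed between the diets.

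In neurons, calcium enters through channels in the plasma membrane and acts as a messenger for transmitter release, gene expression and plasticity. The signal ends when pumps and exchangers return calcium to the outside or to the endoplasmic reticulum, and a store filled in this way can be opened again through ryanodine receptors, which respond to calcium itself, or through inositol trisphosphate receptors, which respond to a product of phospholipase C. Plasma membrane pumps have high affinity and low capacity, while the sodium-calcium exchanger has lower affinity and high capacity. Purkinje cells of the cerebellum are known for a very high level of Itpr1.

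The 250 bases before the annotated start are shown for the members that differed between diets by the test below and have an entry among the RefSeq promoters of GRCm38.p6, where 6 of the 10 members were matched. Those not matched were Atp2a2, Atp2b3, Ryr3 and Itpr1. Each sequence runs 5′ to 3′ on the strand of its gene. Capitals mark matches, on either strand, to any of 5 motifs. The GC box was searched for as GGGCGG, the E-box was searched for as CACGTG, the core of the CRE element was searched for as TGACG, the core of the RORE element as AGGTCA, and the TATA box as TATAAA. No matches overlapped in these windows. Atp2b4 lies at chr1:133753748-133753997 (minus strand), Ryr1 at chr7:29125152-29125401 (minus strand), Ryr2 at chr13:12106946-12107195 (minus strand), Slc8a1 at chr17:81738388-81738637 (minus strand) and the window of Atp2b1 shown here at chr10:98914902-98915151 (plus strand).
Atp2b4: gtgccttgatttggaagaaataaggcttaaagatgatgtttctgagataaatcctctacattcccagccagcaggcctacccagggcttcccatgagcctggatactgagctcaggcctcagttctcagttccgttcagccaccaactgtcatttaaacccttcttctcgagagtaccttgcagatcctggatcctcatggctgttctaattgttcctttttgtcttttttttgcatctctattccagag
Ryr1: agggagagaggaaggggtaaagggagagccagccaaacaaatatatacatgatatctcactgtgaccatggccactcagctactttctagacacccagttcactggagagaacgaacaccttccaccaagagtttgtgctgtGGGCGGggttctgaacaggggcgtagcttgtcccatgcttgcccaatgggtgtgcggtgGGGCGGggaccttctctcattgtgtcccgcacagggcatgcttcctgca
Ryr2: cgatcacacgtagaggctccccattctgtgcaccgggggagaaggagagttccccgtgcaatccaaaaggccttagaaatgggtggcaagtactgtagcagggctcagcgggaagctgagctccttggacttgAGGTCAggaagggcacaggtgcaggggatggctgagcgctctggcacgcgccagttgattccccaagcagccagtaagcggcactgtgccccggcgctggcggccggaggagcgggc
Slc8a1: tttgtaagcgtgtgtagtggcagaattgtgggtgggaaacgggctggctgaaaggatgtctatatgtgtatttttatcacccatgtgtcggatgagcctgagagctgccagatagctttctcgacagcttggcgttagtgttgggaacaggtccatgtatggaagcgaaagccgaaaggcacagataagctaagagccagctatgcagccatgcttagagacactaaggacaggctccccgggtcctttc
Atp2b1: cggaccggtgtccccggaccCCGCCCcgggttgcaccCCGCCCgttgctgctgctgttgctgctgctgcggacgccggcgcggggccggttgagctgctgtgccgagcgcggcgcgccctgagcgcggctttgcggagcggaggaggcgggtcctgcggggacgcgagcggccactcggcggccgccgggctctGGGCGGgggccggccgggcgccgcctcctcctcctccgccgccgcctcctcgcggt

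The window of Atp2b4 held 2 CpG dinucleotides and 45.6% G and C, and no match to any of the 5 motifs. It belongs to a start inside the gene as annotated by GENCODE, which spans chr1:133699457-133801041. The window of Atp2b1 held 41 CpG dinucleotides, 80.8% G and C and 3 GC boxes, and also lies inside its gene as annotated. The other window matched to Atp2b1, at the start of that gene and mostly within its exons, held 43 CpG and 4 GC boxes. Ryr1 held 6 CpG and 2 GC boxes, Ryr2 held 14 CpG and 1 RORE core, and Slc8a1 held 8 CpG and no match. Over all 32851 promoter windows of this length, the median was 6 CpG, and 32.7% held a GC box, 6.02% an E-box, 17.8% a CRE core, 14.0% a RORE core and 12.4% a TATA box. These matches are a description of letters and carry no measurement of binding.

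Across the whole series, FPKM added up to between 562431 and 639142 in a mouse, and read numbers were not used here, so no counting interval can be given. The cortical excitatory neuron marker Slc17a7 was between 209.5 and 403.9 FPKM in the 8 mice. Markers of neighbouring brain regions were present as well and separated the diets or single mice. The summed FPKM of 7 measured striatum markers was 188.1 to 352.1 in normal mice and 52.2 to 62.1 on the high fat diet. That of 5 cerebellar granule cell markers was 14.2, 169.9, 243.6 and 56.6 in normal mice 1 to 4 and 11.5 to 16.2 on the high fat diet, so normal mice 2 and 3 stood apart. The sum of 6 thalamus markers was also highest in normal mice 2 (113.1) and 3 (100.7), against 34.6 to 48.3 in the other 6 mice. The sum of 3 hippocampus markers was 27.2 to 28.9 in normal mice. On the high fat diet it was 25.0 in mouse 3 and 39.5 to 47.1 in the others. Of these markers Wfs1 was higher and Prox1 lower on the high fat diet by the test below. Spink8 did not pass (limma adjusted p = 0.0681), although its diets did not overlap, at 3.8 to 5.0 FPKM in normal mice and 0.2 to 2.9 on the high fat diet. Wfs1 made up most of the sum on the high fat diet, at 21.6 in mouse 3 and 35.0 to 40.3 in the others. The sum of 7 oligodendrocyte markers was 2030 to 3352 in normal mice and 1403 to 1949 on the high fat diet, and that of 6 cortical excitatory neuron markers was 264.6 to 404.4 and 449.7 to 533. Choroid plexus markers summed to 342.7 to 725.5 in normal mice, 21.0 to 76.6 in high fat diet fed mice 1 to 3 and 940.6 in high fat diet fed mouse 4, which stood apart from its diet. All 5 blood markers were lower in high fat diet fed mice by the test below, with sums of 239.2 to 479.7 and 199.1 to 247.4. Endothelium marker sums did not overlap, at 44.8 to 49.2 in normal mice and 35.1 to 42.1 on the high fat diet. Of these 5 markers only Cldn5 was lower by the test below (mean 25.3 to 19.3 FPKM). Pecam1, Flt1, Kdr and Cdh5 overlapped between the diets and did not pass. Sums of astrocyte, microglia, GABAergic interneuron and vascular smooth muscle markers overlapped between the diets. In such bulk tissue, fewer cells of a type and less RNA per cell cannot be told apart. Since all 7 striatum markers were lower in high fat diet fed mice, and cerebellar and thalamic markers set normal mice 2 and 3 apart, an effect of the diet and a difference in the tissue taken cannot be told apart for any gene below.

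Atp2b4, Ryr2 and Slc8a1 were higher in high fat diet fed mice, and Ryr1, Itpr1 and Atp2b1 were lower. Atp2a2, Atp2b2, Atp2b3 and Ryr3 did not pass the test. The test was limma on log2(FPKM + 0.1), two-sided, with p-values adjusted by Benjamini-Hochberg across 13982 genes, all 10 members among them, and an adjusted p below 0.05 was required. By this rule 3 members were higher, where the share over all genes tested was 17.7%, and 3 were lower, where it was 15.3%. A change of over 1.5-fold in either direction was asked for in addition before a gene was called changed, and Atp2b4 passed it upward (4.23% of all genes) and Ryr1 downward (2.90% of all genes). The 4 values of one diet lay entirely above those of the other for 5 members, which occurred in 31.9% of all genes. The median size of the log2 fold change was 0.35 over the members and 0.17 over all genes tested.

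**Figure D1:**
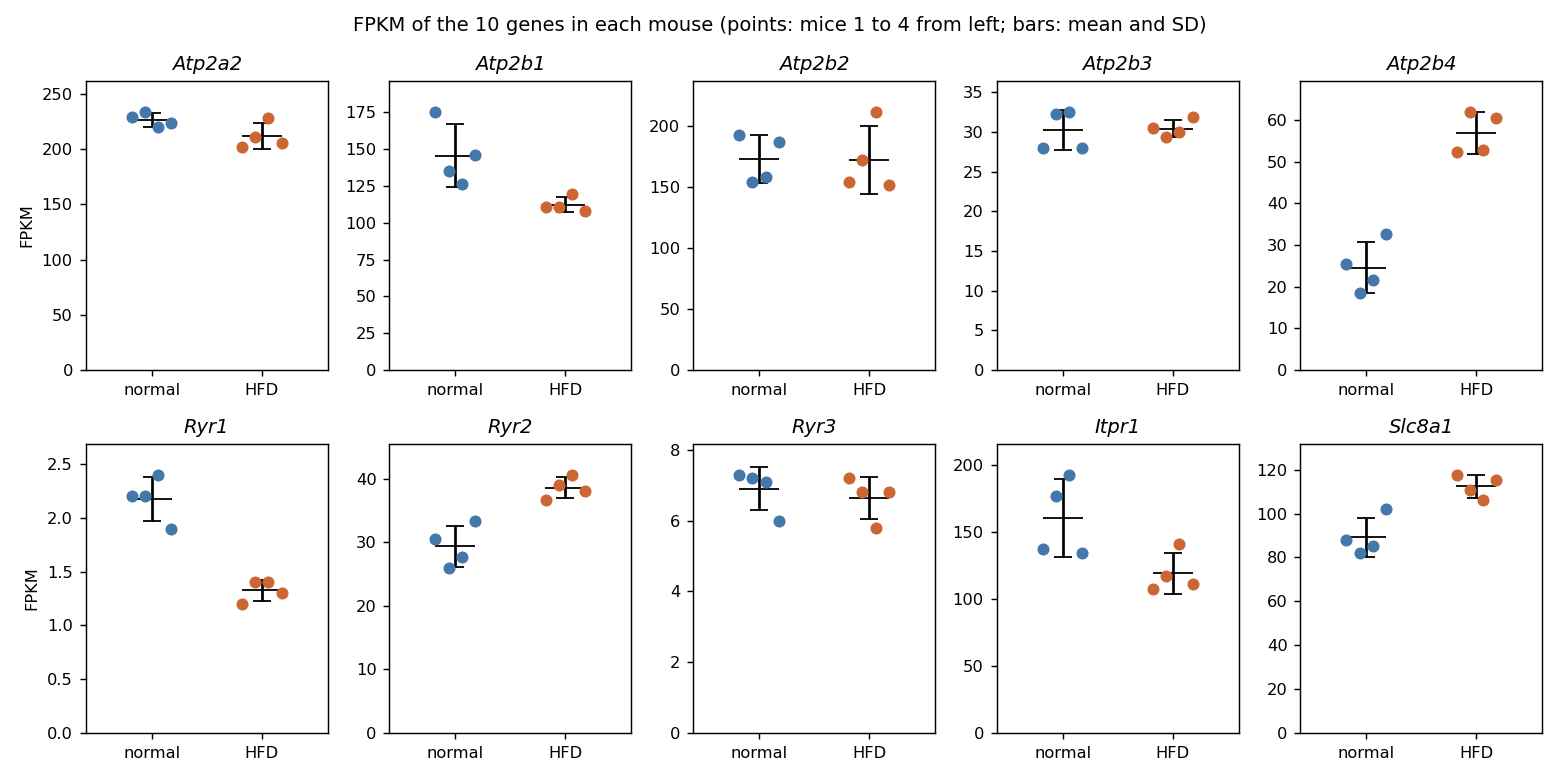
FPKM (vertical axes, each from 0) of the 10 genes in each mouse by diet, with points for mice 1 to 4 from left to right and bars for mean and SD. The diets are apart for Atp2b1, Atp2b4, Ryr1, Ryr2 and Slc8a1, and Itpr1 overlaps through high fat diet fed mouse 3 at 140.9.

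**Figure D2:**
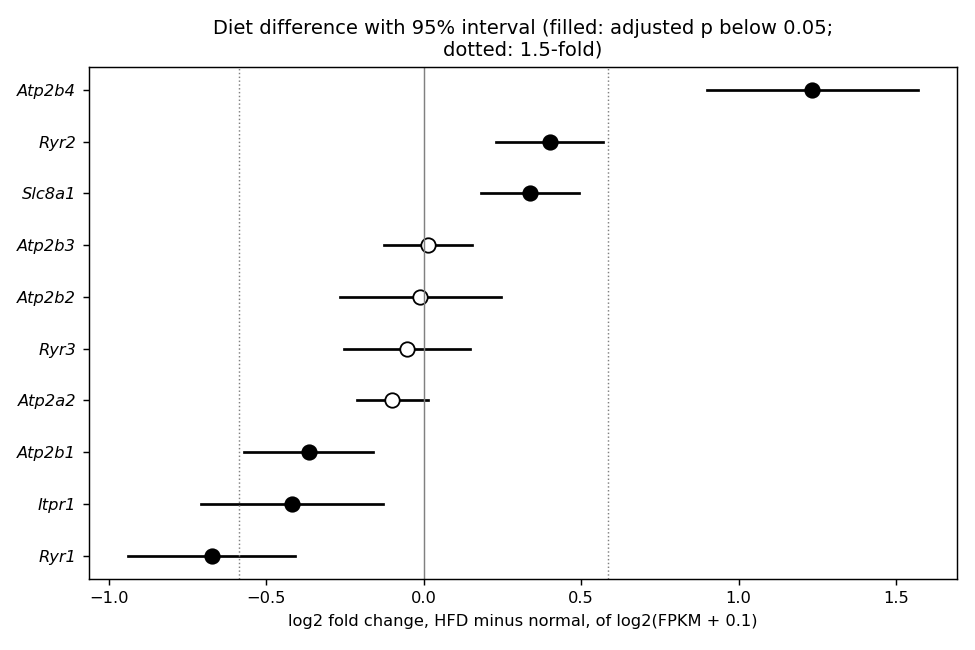
Log2 fold change of HFD minus normal (horizontal axis, on the log2(FPKM + 0.1) scale) with its 95% interval for each gene, filled where the adjusted p is below 0.05. Atp2b4 stands highest at 1.23 and Ryr1 lowest at -0.67, and dotted lines mark a change of 1.5-fold in either direction.

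Of the plasma membrane pumps, which expel calcium from the cell under the control of calmodulin, Atp2b4 (ENSMUSG00000026463.17, chromosome 1) changed most. Its FPKM was 25.4, 18.6, 21.7 and 32.7 in normal mice 1 to 4 and 52.4, 61.9, 52.9 and 60.5 in high fat diet fed mice 1 to 4. Each high fat diet fed mouse was thus above each normal mouse, and the smallest gap was between normal mouse 4 and high fat diet fed mouse 1. This gave a log2 fold change of 1.23 (standard error 0.15, 95% interval 0.90 to 1.57, limma adjusted p = 0.000864), or 2.35-fold. Leaving out single mice gave 1.11 to 1.38, and it was 0.98 (limma adjusted p = 0.00323) without normal mice 2 and 3 together. The call was lost with cerebellar granule cell markers on the log2 scale (0.91, limma adjusted p = 0.0925), kept with these on a linear scale (0.99, limma adjusted p = 0.006), and lost with oligodendrocyte markers (0.52, limma adjusted p = 0.305) as a covariate, and the sign turned with striatum markers (-0.031, limma adjusted p = 0.9998).

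Atp2b1 (ENSMUSG00000019943.10, chromosome 10, 98914406 to 99026143, plus strand), the widely expressed pump of this family, moved the other way. Its FPKM was 175.0, 134.8, 126.0 and 146.1 in normal mice and 110.7, 110.9, 119.3 and 107.6 in high fat diet fed mice. The diets did not overlap, although normal mouse 3 and high fat diet fed mouse 3 were close, and the normal mice varied more (coefficient of variation 14.7% against 4.47%). Limma gave a log2 fold change of -0.37 (standard error 0.09, 95% interval -0.57 to -0.16, limma adjusted p = 0.0146), short of a 1.5-fold change. Without normal mice 2 and 3 it was -0.51, and with the log2 level of cerebellar granule cell markers as a covariate -0.76 (limma adjusted p = 0.0085). With oligodendrocyte markers as a covariate Atp2b1 missed the adjusted threshold, at -0.34 (limma adjusted p = 0.493). It also missed it with striatum markers, where the sign turned, at 0.10 (limma adjusted p = 0.9998).

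Atp2b2 and Atp2b3, pumps found mainly in excitable tissue, showed no difference that passed the test. Atp2b2 (ENSMUSG00000030302.16, chromosome 6, 113743831 to 114042613, minus strand) was 192.1, 154.1, 157.7 and 186.9 FPKM in normal mice and 154.2, 172.2, 211.2 and 151.1 in high fat diet fed mice. High fat diet fed mouse 3 held the highest value of all 8 mice, and high fat diet fed mouse 4 the lowest. On the log2 scale the difference was -0.01 with a 95% interval from -0.27 to 0.25, and its sign turned in several alternatives. Atp2b3 (ENSMUSG00000031376.15, chromosome X, 73503086 to 73571005, plus strand) was 28.0, 32.3, 32.5 and 28.0 in normal mice and 30.5, 29.3, 30.0 and 31.9 in high fat diet fed mice. All 4 high fat diet fed mice fell inside the range of the normal mice, and the 95% interval of the log2 fold change was -0.13 to 0.15.

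The summed FPKM of the 4 plasma membrane pumps was nearly the same in the diets, 373 ± 40.9 for the conventional diet and 372 ± 30.2 for the high fat diet (SD, n = 4). The shares of Atp2b4 and Atp2b1 in this sum moved, while those of Atp2b2 and Atp2b3 kept their means. Atp2b4 made up 6.04, 5.47, 6.42 and 8.31% of the sum in normal mice and 15.1, 16.5, 12.8 and 17.2% in high fat diet fed mice. Atp2b1 made up 37.1 to 41.6% and then 28.9 to 31.8%. Atp2b2 stayed the main pump, at a mean of 46.3% and 46.1%, and Atp2b3 was at 8.22% and 8.23%. The ratio of Atp2b1 to Atp2b4 averaged 6.10 ± 1.25 on the conventional diet and 1.98 ± 0.238 on the high fat diet (SD, n = 4), with 4.47 as the lowest normal value and 2.26 as the highest value on the high fat diet.

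**Figure D3:**
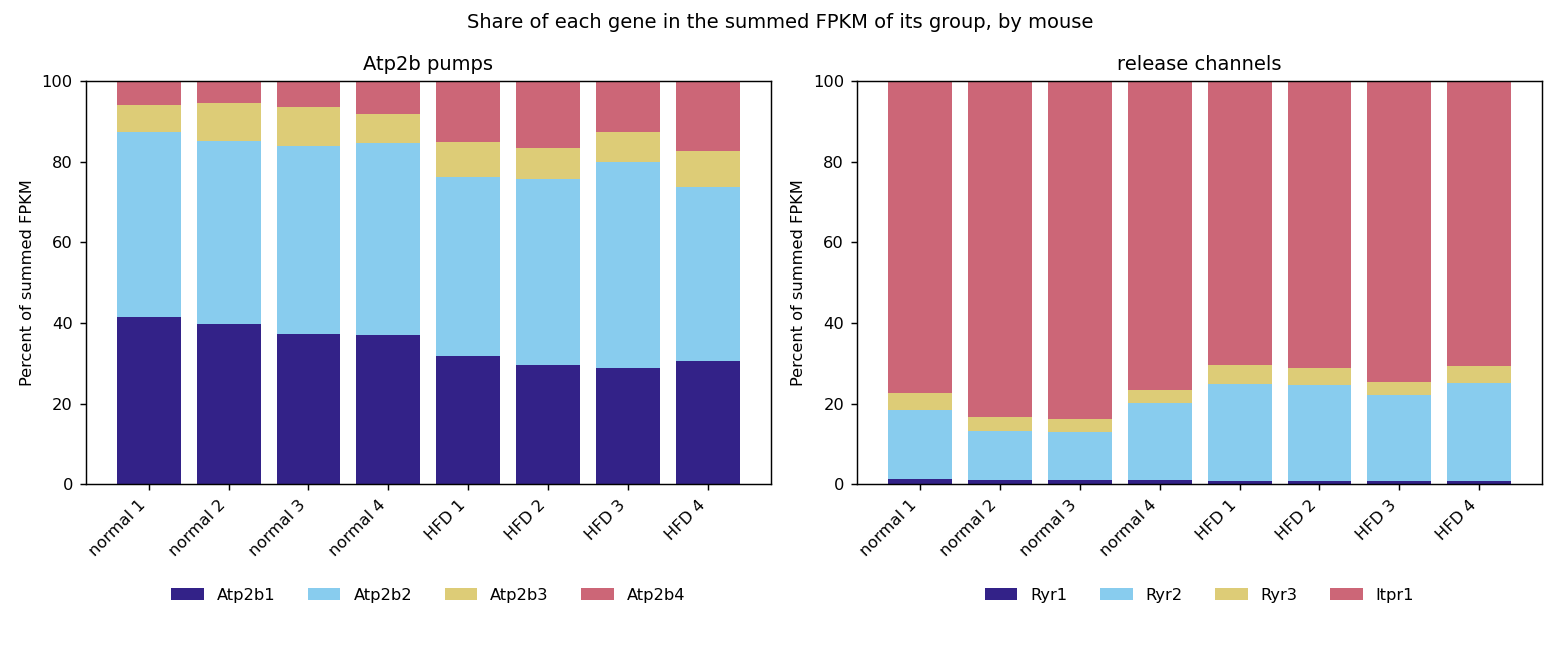
Percent of the summed FPKM (vertical axes) held by each plasma membrane pump (left) and each release channel (right) in each mouse, as stacked bars that add up to the whole. Atp2b4 takes 12.8 to 17.2% of the pumps in high fat diet fed mice against 5.47 to 8.31% in normal mice, and Ryr2 takes 21.5 to 24.2% of the channels against 12 to 19.0%.

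Atp2a2 (ENSMUSG00000029467.15, chromosome 5, 122453513 to 122502225, minus strand) encodes the pump that fills the endoplasmic reticulum. It had the highest level of the 10 genes in both diets. Its FPKM was 228.5, 233.3, 219.6 and 223.3 in normal mice and 201.5, 211.1, 227.8 and 205.0 in high fat diet fed mice. High fat diet fed mouse 3 alone lay within the normal range, and the other 3 high fat diet fed mice lay below it. The fitted log2 fold change was -0.10 (95% interval -0.21 to 0.01, limma adjusted p = 0.157).

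Among the ryanodine receptors, Ryr1 was lower and Ryr2 higher in high fat diet fed mice by the adjusted threshold, and of these only Ryr1 also passed 1.5-fold. Ryr2 (ENSMUSG00000021313.16, chromosome 13, 11553102 to 12106945, minus strand), the form known from heart and the most abundant of the 3 here, was 30.5, 25.9, 27.6 and 33.3 FPKM in normal mice and 36.6, 39.0, 40.6 and 38.1 in high fat diet fed mice. The diets did not overlap, and normal mouse 4 was nearest to the other diet. The difference on the log2 scale was 0.40 (standard error 0.08, 95% interval 0.23 to 0.57, limma adjusted p = 0.0045), with 0.34 to 0.46 when single mice were left out. Ryr2 missed the adjusted threshold with log2 cerebellar granule cell markers (0.21, limma adjusted p = 0.362) or oligodendrocyte markers (0.21, limma adjusted p = 0.568) as a covariate. It passed with the cerebellar markers on a linear scale (0.28, limma adjusted p = 0.0392), and the sign turned with striatum markers (-0.13).

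Ryr1 (ENSMUSG00000030592.18, chromosome 7, 29003344 to 29125179, minus strand), the form known from skeletal muscle, had the lowest level of the 10 genes. Its FPKM was 2.2, 2.2, 2.4 and 1.9 in normal mice and 1.2, 1.4, 1.4 and 1.3 in high fat diet fed mice. Normal mouse 4 was lowest of its diet yet above all high fat diet fed mice. This gave a log2 fold change of -0.67 (standard error 0.12, 95% interval -0.94 to -0.41, limma adjusted p = 0.00335). At this level the added constant matters and the deposited rounding to 0.1 is coarse. With a constant of 0.5 or 1 the log2 fold change was -0.55 or -0.45 and no longer reached 1.5-fold. With log2 cerebellar granule cell, oligodendrocyte or striatum markers as a covariate it was -0.57, -0.42 or -0.26, and none of these passed (limma adjusted p = 0.184, 0.468 and 0.9998). The antisense RNA Gm26604 shares 864 bp with Ryr1 exons, or 3.96% of their length, and while the libraries were made with a stranded kit, it is not known here whether reads were assigned by strand.

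Ryr3 (ENSMUSG00000057378.15, chromosome 2, 112631355 to 113217096, minus strand), a form also present in brain, was 7.3, 7.2, 7.1 and 6.0 FPKM in normal mice and 7.2, 6.8, 5.8 and 6.8 in high fat diet fed mice. One mouse of each diet was low, normal mouse 4 and high fat diet fed mouse 3, and the others overlapped. Limma gave a log2 fold change of -0.05 (95% interval -0.25 to 0.15, limma adjusted p = 0.674). The protein-coding gene Aven on the opposite strand shares 916 bp with Ryr3 exons, or 4.83% of their length.

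Itpr1 (ENSMUSG00000030102.11, chromosome 6, 108213096 to 108551109, plus strand), the main inositol trisphosphate receptor of neurons, was 137.4, 176.8, 192.8 and 134.2 FPKM in normal mice and 107.1, 116.8, 140.9 and 111.5 in high fat diet fed mice. Normal mice 2 and 3 were far above the other mice, and high fat diet fed mouse 3 was above normal mice 1 and 4, so the diets overlapped. On the log2 scale the difference was -0.42 (standard error 0.13, 95% interval -0.71 to -0.13, limma adjusted p = 0.0332). The adjusted threshold was missed without normal mouse 2 (limma adjusted p = 0.0873) or 3 (0.0738) and without high fat diet fed mouse 1 (0.0858), 2 (0.0755) or 4 (0.0763). It was passed in the other 3 such fits, and the log2 fold change lay between -0.50 and -0.32 in all 8. Without normal mice 2 and 3 together the log2 fold change was -0.20 (limma adjusted p = 0.203). With cerebellar granule cell markers as a covariate it was -0.0027 on the log2 scale (limma adjusted p = 0.995) and -0.16 on the linear scale (limma adjusted p = 0.336). The sign turned with oligodendrocyte markers (0.13, limma adjusted p = 0.803), and with striatum markers the value was -0.29 (limma adjusted p = 0.9998).

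The summed FPKM of the 4 release channels was 177.4, 212.1, 229.9 and 175.4 in normal mice and 152.1, 164.0, 188.7 and 157.7 in high fat diet fed mice. Itpr1 supplied most of it, with 76.5 to 83.9% in normal mice and 70.4 to 74.7% on the high fat diet. The share of Ryr2 was 17.2, 12.2, 12 and 19.0% in normal mice and 24.1, 23.8, 21.5 and 24.2% in high fat diet fed mice, which did not overlap. The ratio of Itpr1 to Ryr2 was 4.50, 6.83, 6.99 and 4.03 in normal mice and 2.93, 2.99, 3.47 and 2.93 in high fat diet fed mice.

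Slc8a1 (ENSMUSG00000054640.14, chromosome 17, 81373105 to 81738377, minus strand) encodes the exchanger that uses the sodium gradient to expel calcium. Its FPKM was 87.8, 81.8, 85.3 and 102.0 in normal mice and 117.7, 110.7, 106.0 and 115.1 in high fat diet fed mice. Each high fat diet fed mouse was above each normal mouse, by little between normal mouse 4 and high fat diet fed mouse 3. The fitted log2 fold change was 0.34 (standard error 0.07, 95% interval 0.18 to 0.49, limma adjusted p = 0.00651), and 0.25 (limma adjusted p = 0.0465) without normal mice 2 and 3. Slc8a1 missed the adjusted threshold with cerebellar granule cell markers as a covariate, on the log2 scale (0.25, limma adjusted p = 0.295) and on the linear scale (0.26, limma adjusted p = 0.0585). It also missed it with oligodendrocyte markers (0.02, limma adjusted p = 0.949), and striatum markers turned the sign (-0.24).

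By mean FPKM, a level per length, the order in normal mice was Atp2a2, Atp2b2, Itpr1, Atp2b1, Slc8a1, Atp2b3, Ryr2, Atp2b4, Ryr3 and Ryr1. The ranges of neighbours overlapped from Atp2b2 to Itpr1 and Atp2b1, and from Atp2b3 to Ryr2 and Atp2b4. In high fat diet fed mice the order was Atp2a2, Atp2b2, Itpr1, Slc8a1, Atp2b1, Atp2b4, Ryr2, Atp2b3, Ryr3 and Ryr1. Atp2b4 thus stood apart from Ryr2, and Ryr2 from Atp2b3, with no overlap of ranges in this diet. Slc8a1, at 112.4 ± 5.14 (SD, n = 4), and Atp2b1, at 112.1 ± 5.02 (SD, n = 4), were at the same level within their spread, as were Itpr1 and Slc8a1, and the ranges of Atp2a2 and Atp2b2 overlapped through high fat diet fed mouse 3. The coefficient of variation was larger in normal mice for 7 of the 10 genes, and Atp2b4 had the largest, 24.7% in normal mice against 8.74% in high fat diet fed mice.

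Some members varied with regional or cell type markers in some of the mice and not in others. Itpr1 was 176.8 and 192.8 FPKM in normal mice 2 and 3, the mice with cerebellar granule cell marker sums of 169.9 and 243.6. The carbonic anhydrase-related gene Car8, a Purkinje cell marker whose protein binds the receptor that Itpr1 encodes, was 5.0, 63.2, 78.3 and 15.6 in normal mice 1 to 4 and 2.8 to 3.5 on the high fat diet. The Purkinje cell list is not specific to that cell type. Of its 4 measured genes, Car8, Slc1a6 and Gdf10 were highest in normal mice 2 and 3. Itpka, which cortical neurons also express, was lowest there (70.3 and 65.6 FPKM, against 80.8 to 96.0 in the others). The sum of the 4 was 105.8 to 168.5 in normal mice and 88.4 to 94.2 on the high fat diet. In high fat diet fed mice, Ryr2 and the cortical excitatory neuron marker sum were both highest in mouse 3 and next in mouse 2, and in normal mice both measures were higher in mice 1 and 4 than in mice 2 and 3. Atp2b4 was likewise higher in normal mice 1 and 4 than in 2 and 3, but in high fat diet fed mouse 3, with the highest excitatory marker sum (533), it was only 52.9. Slc8a1 was lowest, within each diet, in the mouse with the highest oligodendrocyte marker sum, normal mouse 2 (3352) and high fat diet fed mouse 3 (1949), but the lowest sum (1403), in high fat diet fed mouse 2, went with the second-lowest Slc8a1 of its diet (110.7). Ryr1 was lowest among normal mice in mouse 4, which had the lowest striatum marker sum of that diet (188.1), but it was highest in normal mouse 3 (2.4), whose sum of 277.4 was below those of normal mice 1 and 2. The part of these markers in the members' differences between diets was not tested beyond the models that follow.

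**Figure D4:**
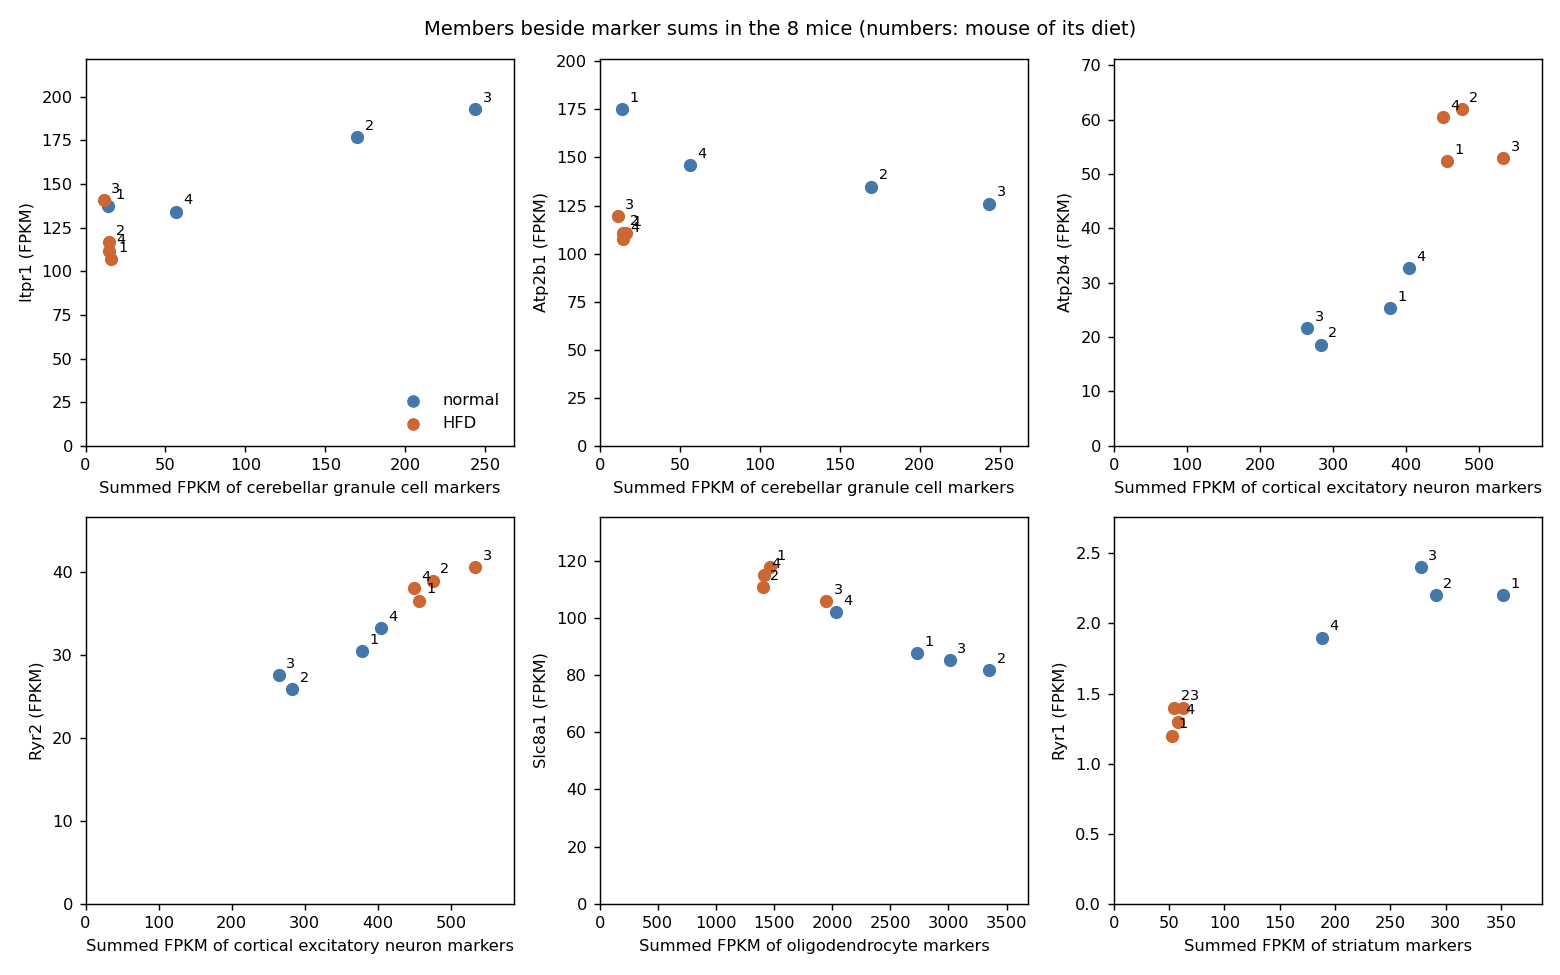
FPKM of 6 members (vertical axes, from 0) against the summed FPKM of a marker list (horizontal axes, from 0) in the 8 mice, coloured by diet and numbered within it. Pairs were chosen after the values were seen. Itpr1 is highest in normal mice 2 and 3, where the cerebellar granule cell sum is 169.9 and 243.6.

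With the log2 level of cerebellar granule cell markers as a covariate, 1 of the 10 members, Atp2b1, passed the adjusted threshold. Atp2b4 was then at 0.91 (standard error 0.25, limma adjusted p = 0.0925), Ryr1 at -0.57 (limma adjusted p = 0.184), Ryr2 at 0.21 (limma adjusted p = 0.362), Slc8a1 at 0.25 (limma adjusted p = 0.295) and Itpr1 at -0.0027 (limma adjusted p = 0.995). With the same markers on a linear scale 4 members passed, Atp2b4 (0.99), Ryr2 (0.28), Atp2b1 (-0.56) and Ryr1 (-0.58). With oligodendrocyte or striatum markers as a covariate 0 members passed, and 2 and 0 genes of all those tested were called changed. With oligodendrocyte markers Atp2b1 was at -0.34 (limma adjusted p = 0.493), Atp2b4 at 0.52 (0.305), Ryr1 at -0.42 (0.468), Ryr2 at 0.21 (0.568), Slc8a1 at 0.02 (0.949) and Itpr1 at 0.13 (0.803). Neither the striatum nor the oligodendrocyte marker sums overlap between the diets, so diet and these markers cannot be told apart in either model. The same holds for the cerebellar granule cell markers on the log2 scale, whose mean log2 level did not overlap between the diets. There Gabra6, Cbln3 and Fat2 were apart, at 0.0 to 0.6 FPKM on the high fat diet, while Cbln1 and Neurod1 overlapped. The standard error of Atp2b4 was 0.68 with striatum markers, 0.25 with log2 cerebellar granule cell markers and 0.205 with oligodendrocyte markers, against 0.15 without a covariate. Without normal mice 2 and 3, a choice made once the values were known, 5 of the 6 members passed, all but Itpr1.

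**Figure D5:**
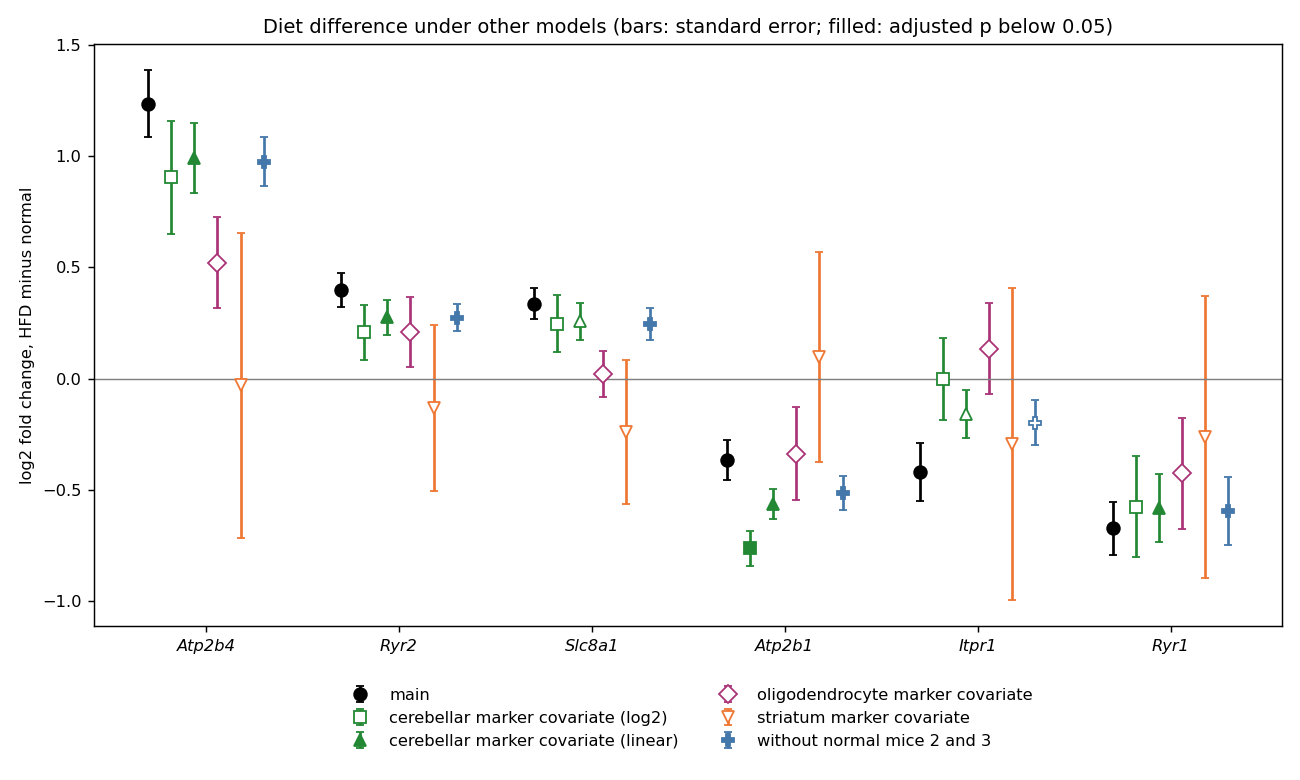
Log2 fold change of HFD minus normal (vertical axis) with its standard error for the 6 members that passed the test, under the reported model and 5 others, filled where the adjusted p is below 0.05. Atp2b4 is at 1.23 in the reported model, 0.98 without normal mice 2 and 3 and 0.52 with oligodendrocyte markers as a covariate.

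A list of 69 other genes of calcium handling held 57 within the filter on low FPKM. By the adjusted threshold 5 of these were higher on the high fat diet and 25 were lower, against 17.7% and 15.3% of all genes, and the median log2 fold change was -0.20, against 0.00 over all genes. Of the 57, 6 passed with log2 cerebellar granule cell markers as a covariate, 22 with these on a linear scale, and 0 with striatum or oligodendrocyte markers, against 30 without a covariate. Each of the 8 groups of the list held at least 1 lower gene. In small groups this can be close to the share over all genes, as for 1 of 6 other exchangers. Of 5 other pumps and pump partners 4 were lower, among them Bsg (303 ± 18.9 to 248 ± 8.1 FPKM, SD, n = 4) and Nptn (316 ± 27.3 to 272 ± 9.18), whose proteins form complexes with plasma membrane pumps. Of 6 genes of store-operated entry, which refills the endoplasmic reticulum, 4 were lower, Stim2, Orai1, Orai2 and Orai3, with log2 fold changes from -0.56 for Orai2 to -0.26 for Orai3. The store sensor Stim1 was at 0.02 and did not pass. Of 6 calcium-binding proteins of the store 3 were lower, Calr, Canx and Calu, with log2 fold changes between -0.28 and -0.25. Of 16 other channels and channel partners 5 were lower and 2 higher. Of 8 calmodulin and cytosolic buffer genes 5 were lower and 1 higher, of 7 mitochondrial uptake genes 2 were lower, of 3 genes of phospholipase C beta 1 was lower, and of 6 other exchangers 1 was lower and 2 were higher.

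By the rule for naming genes, the lowest of the list were Homer3, Calb2 and Casq2. Homer3, a scaffold that links metabotropic glutamate receptors to Itpr1, was 6.4, 21.3, 25.1 and 9.2 FPKM in normal mice and 2.4 to 3.0 on the high fat diet, a log2 difference by limma of -2.27 with an adjusted p = 0.00274. Calb2, a cytosolic calcium buffer, was 11, 71.2, 83.1 and 36.6 in normal mice and 7.1 to 10.9 on the high fat diet, a log2 difference by limma of -2.16 with an adjusted p = 0.0142. Casq2, a calcium buffer of the store, was 1.9, 5.8, 5.8 and 1.9 in normal mice and 0.7 to 1.0 on the high fat diet, a log2 difference by limma of -1.91 with an adjusted p = 0.00557. All 3 were highest in normal mice 2 and 3, the mice with the highest cerebellar marker sums. The highest were Slc24a4, a sodium-calcium-potassium exchanger (6.73 ± 1.02 to 11.6 ± 0.804 FPKM, SD, n = 4, log2 fold change 0.79), Slc8a2, the brain paralogue of Slc8a1 (42.9 ± 7.84 to 57.8 ± 7.66, log2 fold change 0.44), and Homer2 (16.5 ± 2.14 to 22.2 ± 2.22, log2 fold change 0.43), with limma adjusted p = 0.00112, 0.0308 and 0.0111. Thus Slc8a1 and Slc8a2 were both higher in high fat diet fed mice, whereas Slc8a3 (12.3 ± 2.59 to 9.73 ± 0.377, log2 fold change -0.31) did not pass.

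The genes nearest to Atp2b4 and Ryr1 were found by the mean absolute difference, over the 8 mice, of log2 values centred on each gene's mean, among genes whose mean FPKM reached 5. For Atp2b4 they included Grp (0.13), Tshz3 (0.14), Bcl11a (0.14) and Pak6 (0.15). Of these Grp went from 6.35 to 14.7 FPKM and Bcl11a from 13.9 to 26.5. For Ryr1 they were Gabrd (0.04), Clmp (0.05), Tesc (0.06), Anp32b (0.06) and Gnal (0.06). Gabrd, a GABA-A receptor subunit, went from 42.2 to 27.4 FPKM and Tesc, a calcium-binding protein, from 30.6 to 17.8. These distances compare how genes vary between mice, not their levels. The difference between diets is part of them, so the shared direction of change follows from the choice of genes.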

How the data were processed

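RNA of 8 cortexes, 4 per diet, was sequenced. After trimming (Trimmomatic) and alignment to mm10 (STAR), the authors derived the deposited FPKM values with Cuffnorm and GENCODE M17 (GRCm38.p6), rounded to 0.1. Libraries were made with a stranded kit. Tool versions, and whether Cuffnorm used the strand, were not stated in the sources used. Genes with a mean FPKM under 1 or a 0 in any mouse were left out (14 of 13996), as in the study. From the FPKM, log2(FPKM + 0.1) was compared between diets by limma (version 3.58.1, R version 4.3.3), two-sided and with a trended prior variance, adjusted over 13982 genes, in place of the test gene by gene in the study. The fit was tested on simulated data. Tables were made with Python 3.11.15, numpy 2.4.6 and pandas 2.3.3, and figures with matplotlib 3.10.9. Positions come from GENCODE M21 on GRCm38. The labels do not say whether mice with the same replicate number shared a batch.

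The members and the lists were chosen with earlier results of these data known. Named in the text were the members, the 3 largest changes each way that passed among 69 other calcium genes, the 5 genes nearest to each member called changed, and markers as lists. Car8 and the other calcium genes named as examples of their groups were picked after their values were seen. Some genes that these rules name are not reported here. Alternatives were other added constants, filters, scalings, no variance trend, a replicate block, marker covariates and each mouse left out. Added after seeing the data were a linear cerebellar covariate and leaving out normal mice 2 and 3 together.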

Additional observations from a re-analysis of the deposited data

Results flagged for a closer look

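In 44 groups of 4 values, one mouse lay apart from the other 3 of its diet in 3 by Dixon's criterion, where chance gives about 1 group in 20. Ryr3 was 6.0 FPKM in normal mouse 4, below the 7.1 to 7.3 of the other normal mice. In high fat diet fed mouse 3, the share of Ryr2 in the release channels was 21.5%, against 23.8 to 24.2% in the other 3, and the ratio of Itpr1 to Ryr2 was 3.47, against 2.93 to 2.99. Both measures contain Itpr1, which was highest of its diet in that mouse (140.9 FPKM).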

How the results depend on the processing

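The 6 members that passed the adjusted threshold were 5 or 6 with each mouse left out in turn (3 higher, and 2 or 3 lower). The 2 members called changed were 2 in each of these fits, the other calcium genes that passed were 22 to 30 (reported 30), and all genes called changed were 771 to 1196 (reported 997). Across these fits the log2 fold change of Atp2b2 lay between -0.11 and 0.048, of Atp2b3 between -0.021 and 0.050 and of Ryr3 between -0.12 and 0.011, with a turn of sign, and of Itpr1 between -0.50 and -0.32. With an added constant of 0.5 or 1, or a mean FPKM of at least 5, 1 member was called changed, since Ryr1 fell short of 1.5-fold or was not tested. All genes called changed were 603 with a constant of 1 and 422 with that filter. With cerebellar markers as a covariate 1 member passed (0 higher, 1 lower) and was called changed, 6 other calcium genes passed and 201 genes were called. This member was Atp2b1, not called in the reported model, while Atp2b4 and Ryr1 did not pass. With the cerebellar markers on a linear scale 1 member, Atp2b4, was called changed and 585 genes were called. Without normal mice 2 and 3 together 604 genes were called and Ryr3 was at 0.0023. With striatum markers as a covariate 0 members passed in either direction or were called changed, 0 other calcium genes passed and 0 genes were called, and Atp2b1 was at 0.10, Atp2b4 at -0.031, Ryr2 at -0.13, Ryr3 at 0.76 and Slc8a1 at -0.24. With oligodendrocyte markers 0 members passed or were called changed, 0 other calcium genes passed and 2 genes were called, with Atp2a2 at 0.035, Atp2b2 at 0.10 and Itpr1 at 0.13. Each covariate leaves fewer degrees of freedom; beyond that the cause was not tested. Quantile normalization moved Atp2b2 to 0.040, and without a variance trend Itpr1 missed the threshold (limma adjusted p = 0.0523).

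Deviations of same-numbered mice from their diet means correlated at -0.11 to -0.03 across genes. No pairing by replicate number was thus seen, but so few correlations cannot exclude a shared batch. With the replicate block 6 members passed and 2 were called changed, while 26 other calcium genes passed and 896 genes were called.

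Read numbers behind each FPKM were not used here, so depth limits cannot be stated. Ryr1, at 1.2 to 2.4 FPKM with steps of 0.1, is measured least finely of the members.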
